A study of Mus musculus with 4 samples.

Results

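The genes of the MHC class II pathway and their transactivator Ciita were followed in endothelium taken from the hearts of adult mice. The set was named as 9 genes, and its probes were found by matching the array's RefSeq accessions to those symbols. This gave 12 probes for 8 genes, out of 18349 genes with a probe, and H2-Eb1 was not matched to a probe. The genes were chosen by their G2-EC-KO minus Control differences on these same arrays, which had been seen to be negative. Their differences between the groups are therefore given as a description, and nothing is inferred from counts over the set.

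Total RNA from 2 G2-EC-KO samples and 2 Control samples was hybridised to Agilent 1-colour arrays, 1 array per sample. The labels call the G2-EC-KO samples Gata2 knock out and the Control samples wild type, both from adult cardiac endothelial cells (EC). Strain, sex, exact age and the driver of the deletion are not given in the sources used here, nor is it stated whether the replicates came from separate animals, so the spread between samples may be technical in part. The study's purpose, from its title, concerns long non-coding RNAs secreted by endothelial cells in the stressed heart.

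Classical MHC class II molecules are pairs of an alpha and a beta chain that present peptides from endosomes to CD4+ T cells. In mice H2-Aa and H2-Ab1 encode the pair of the A molecule and H2-Eb1 a beta chain of the E molecule. The invariant chain Cd74 guides new class II molecules to endosomes, H2-DM (H2-DMa with a beta chain from H2-DMb1 or H2-DMb2) exchanges its remnant for other peptides, and H2-O, whose alpha chain is H2-Oa, inhibits H2-DM. Ciita is the coactivator that class II transcription depends on. It does not bind DNA itself but docks on the factors RFX, CREB and NF-Y held by the X and Y boxes upstream of class II genes. Dendritic cells, B cells and macrophages carry class II molecules constitutively, and interferon gamma induces Ciita and class II genes in endothelium.

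Promoter windows of 300 bases, 250 before and 50 after the annotated start, were found in the RefSeq table of build GRCm38.p6 for 6 of the 9 genes, 7 windows in all. They are shown for the element that class II promoters share. Capitals mark TGATTGG, the Y box letters around the CCAAT sequence that NF-Y binds, searched on both strands. The windows are H2-Aa at chr17:34287774-34288073 on the minus strand, and on the plus strand H2-DMb1 at chr17:34152941-34153240, H2-DMb2 at chr17:34144999-34145298 and H2-Oa at chr17:34092129-34092428. They set a classical chain beside both H2-DM beta chains and a chain of the H2-DM inhibitor.
H2-Aa: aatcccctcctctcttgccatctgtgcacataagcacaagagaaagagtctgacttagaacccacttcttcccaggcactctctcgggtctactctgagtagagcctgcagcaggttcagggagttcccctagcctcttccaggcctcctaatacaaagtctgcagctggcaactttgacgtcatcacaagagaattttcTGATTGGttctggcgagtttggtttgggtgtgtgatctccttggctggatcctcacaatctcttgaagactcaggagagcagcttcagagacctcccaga
H2-DMb1: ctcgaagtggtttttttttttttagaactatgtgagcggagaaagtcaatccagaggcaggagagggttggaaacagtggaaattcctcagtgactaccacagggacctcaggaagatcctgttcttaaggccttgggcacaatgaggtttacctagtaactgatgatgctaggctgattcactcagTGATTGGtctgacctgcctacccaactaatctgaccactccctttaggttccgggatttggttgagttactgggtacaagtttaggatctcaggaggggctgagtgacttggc
H2-DMb2: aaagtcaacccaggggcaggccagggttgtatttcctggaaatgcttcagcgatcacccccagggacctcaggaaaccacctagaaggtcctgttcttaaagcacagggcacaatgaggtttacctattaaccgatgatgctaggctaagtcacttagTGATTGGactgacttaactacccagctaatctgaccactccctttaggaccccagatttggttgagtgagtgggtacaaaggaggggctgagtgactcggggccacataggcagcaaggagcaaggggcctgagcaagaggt
H2-Oa: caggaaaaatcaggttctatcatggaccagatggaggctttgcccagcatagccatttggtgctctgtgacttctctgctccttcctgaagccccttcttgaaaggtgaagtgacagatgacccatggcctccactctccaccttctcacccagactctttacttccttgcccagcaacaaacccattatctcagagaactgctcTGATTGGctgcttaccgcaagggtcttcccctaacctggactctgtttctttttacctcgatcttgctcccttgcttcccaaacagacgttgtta

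TGATTGG stood in 5 of the 7 windows, the fifth being that of H2-Eb1, against 7.82% of all 32851 windows in the table. It began 50 bases before the start in H2-Aa, 63 in H2-DMb1, 92 in H2-DMb2, 61 in H2-Eb1 and 45 in H2-Oa. In these 5 windows it lay on the strand of the gene. Neither of the 2 windows of H2-DMa held these letters, which says nothing about binding there.

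The arrays as a whole were comparable. The 75th percentile of the processed signal was 1290 and 1183 in G2-EC-KO and 1415 and 1441 in Control, 63.8% to 66.5% of probes were well above background, and 0 spots were saturated. Replicates of a group differed by more than 2 log2 units at 134 probes in G2-EC-KO and at 103 probes in Control, with no member of the set among them. The interferon-inducible gene Ifi202b was 1 such probe, with 2.90 and 2.32 in G2-EC-KO and 2.77 and -6.21 in Control. The peptide transporter gene Slc15a2 was another, with -0.16 and -0.48 in G2-EC-KO and -7.60 and 1.14 in Control. Control replicate 2 was thus the low array for Ifi202b and Control replicate 1 for Slc15a2. The targeted gene Gata2 read 2.16 and 2.46 in G2-EC-KO and 1.86 and 2.17 in Control at probe A_51_P516625, not lower in G2-EC-KO. Its other probe, A_52_P233441, read 1.72 and 1.91 in G2-EC-KO and 1.53 and 1.75 in Control, also not lower. The deleted part of the gene and the place of the probes are not given in the sources used here, so this checks nothing, and every direction given here rests on the labels. The G2-EC-KO arrays held the later positions on the 1 slide used, so position and group cannot be told apart. All 14 endothelial markers of the list used, such as Flt1, Cldn5, Emcn and Robo4, were well above background on 2 or more arrays. Their median log2 difference was -0.030, with 7 lower and 7 higher, and values of 0.0090 for Flt1, -0.22 for Cldn5, 0.087 for Emcn and 0.13 for Robo4. By limma 0 passed an adjusted p of 0.05 and 1, Erg, lower, the unadjusted 0.05. The groups were without overlap on the lower side at 4 of the 14 and on the higher side at 2, Emcn and Robo4. The shares of named genes were 16.4% lower and 30.7% higher. The 4 on the lower side, named here after their values were seen, were the adhesion molecule gene Pecam1, the receptor genes Tie1 and Tek and the transcription factor gene Erg. Their log2 differences were -0.24, -0.22, -0.24 and -0.36, within the range of those of the class II probes.

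Across the set, every tested probe had a lower mean in G2-EC-KO than in Control, by modest amounts. Testing required a signal well above background on 2 or more of the 4 arrays, and 11 of the 12 probes met this on all 4. Values are log2 signal relative to the 75th percentile of the same array, so 0 is that percentile and levels are not comparable between probes. The 11 probes had log2 differences (G2-EC-KO minus Control) from -0.51 to -0.14 with a median of -0.31, while the median over all 26900 probes tested was 0.00036. On a linear scale this placed G2-EC-KO at 70.0% to 91.0% of Control. In samples of many cells, fewer cells carrying a transcript and less transcript per cell cannot be told apart.

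None of these differences passed the threshold of the whole-array test. With limma and Benjamini-Hochberg adjustment over all probes, 0 of the 11 were below an adjusted p of 0.05, against 0.00% of all probes lower and 0.00372% higher. At an unadjusted p under 0.05 there were 2, the Cd74 probe and 1 H2-Ab1 probe, both lower, against 4.65% of all probes lower and 4.96% higher. The values of both G2-EC-KO arrays lay below both Control arrays at 8 of the 11 probes and above both at 0, against 22.3% and 24.1% of all probes. The sign was negative at 11 of 11 probes, against 49.9% of all probes negative and 50.1% positive. The 11 probes come from 7 genes, and probes of a gene measure the same transcript. By the brightest probe of each gene, 5 of 7 genes were without overlap on the lower side, against 16.4% of 13627 named genes lower and 30.7% higher. By the same probes 2 of 7 genes had an unadjusted p under 0.05, lower, where 273 of the named genes did so lower and 845 higher. The sign was negative at 7 of 7 genes, against 41.5% of named genes negative and 58.5% positive, and the median over all named genes was 0.043. With 2 arrays per group, the smallest two-sided p of an exact permutation test is 0.333, so no single gene could be tested that way.

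**Figure D1:**
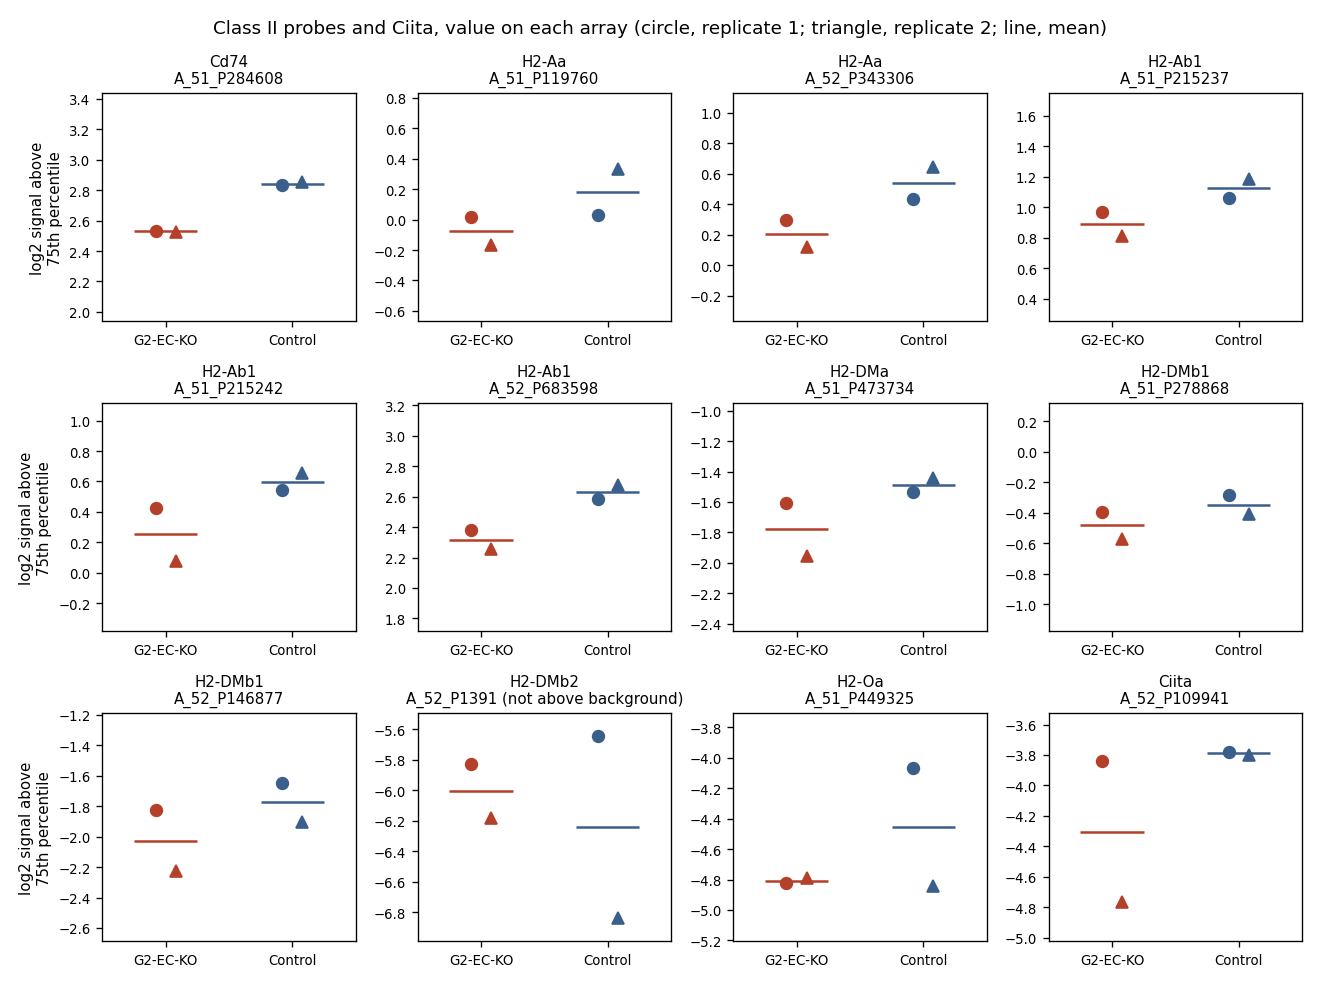
Value of each of the 12 probes on every array, in log2 units relative to the array's 75th percentile, with G2-EC-KO left and Control right of each panel and the line at the group mean; every panel spans the same height. The G2-EC-KO points lie below the Control points without overlap in 8 panels, most tightly for Cd74, and overlap in the panels of H2-DMb1, H2-DMb2 and H2-Oa.

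Cd74, the invariant chain, had the narrowest spread. Its probe A_51_P284608 read 2.53 and 2.52 in G2-EC-KO, against 2.83 and 2.85 on the Control arrays. The means were 2.53 ± 0.0058 in G2-EC-KO and 2.84 ± 0.012 in Control (SD, n = 2 each), a log2 difference of -0.31 (SE 0.10), or 80.4% of Control. The groups did not overlap, and the replicates of each group were nearly equal. The SE is larger than the spread of this probe because limma draws each probe's variance toward that of all probes. Leaving out each array in turn moved the difference only between -0.32 and -0.31.

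H2-Ab1, the beta chain of the A molecule, was read by 3 probes. A_52_P683598 had 2.38 and 2.26 on the G2-EC-KO arrays, against 2.59 and 2.68 on the Control arrays, a log2 difference of -0.31 (SE 0.12). A_51_P215242 had 0.43 and 0.078 in G2-EC-KO, against 0.55 and 0.65 in Control, a log2 difference of -0.35 (SE 0.16). A_51_P215237 had 0.97 and 0.81 in G2-EC-KO, against 1.06 and 1.19 in Control, a log2 difference of -0.23 (SE 0.12). The 3 probes thus gave the same order of the arrays, with G2-EC-KO replicate 2 lowest and Control replicate 2 highest, and none overlapped between groups.

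A_51_P215237 was printed 10 times on each array, which gives a measure of the technical error within an array. Its 10 spots had an SD of 0.023 and 0.030 in G2-EC-KO and of 0.047 and 0.026 on the Control arrays. The spots ranged from 0.94 to 1.01 on G2-EC-KO replicate 1 and from 0.74 to 0.84 on replicate 2, against 0.99 to 1.16 on Control replicate 1 and 1.15 to 1.23 on replicate 2. The spots of G2-EC-KO replicate 1 thus overlapped those of Control replicate 1 and no others of Control. The difference between replicates of a group, -0.16 for G2-EC-KO and 0.13 for Control (replicate 2 minus replicate 1), was larger than the SD among the spots of any array.

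H2-Aa, the alpha chain that pairs with H2-Ab1, was read by 2 probes. A_52_P343306 had 0.30 and 0.12 in G2-EC-KO, against 0.44 and 0.64 in Control, a log2 difference of -0.33 (SE 0.14). A_51_P119760 had 0.019 and -0.17 in G2-EC-KO, against 0.031 and 0.33 in Control, a log2 difference of -0.26 (SE 0.16). Both kept the order seen for H2-Ab1. For A_51_P119760 replicate 1 of the groups differed by only 0.012, and the difference was -0.11 without Control replicate 2.

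**Figure D2:**
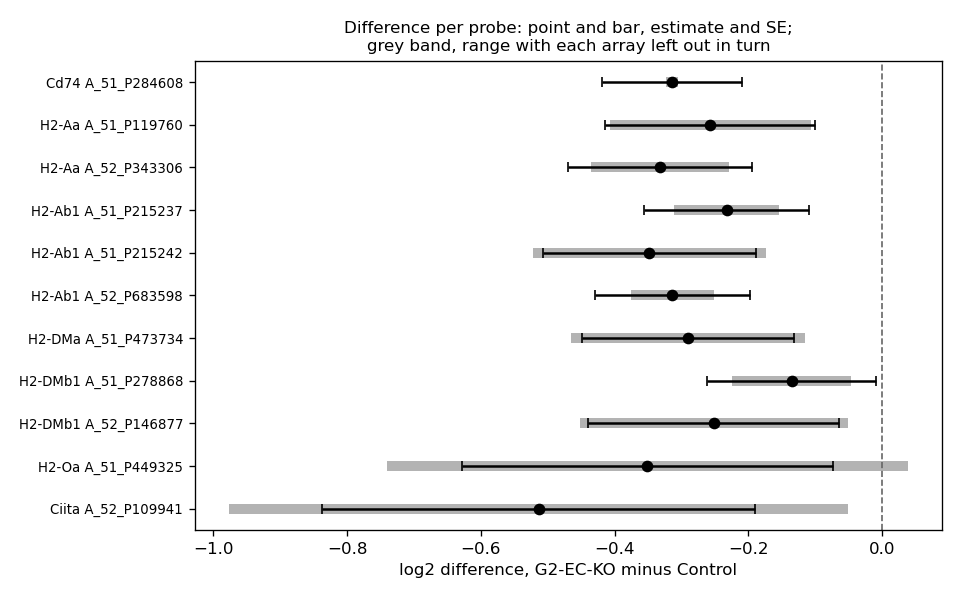
Log2 difference of G2-EC-KO minus Control for the 11 probes tested, as the estimate with its standard error (black), and the range obtained with each array left out in turn (grey). All estimates lie between -0.51 and -0.14, the band of Cd74 is the narrowest, and only the band of H2-Oa crosses 0.

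The peptide exchange factor H2-DM had smaller or less even differences. H2-DMa, its alpha chain, read -1.61 and -1.96 in G2-EC-KO, against -1.54 and -1.44 in Control, a log2 difference of -0.29 (SE 0.16) that was -0.11 without G2-EC-KO replicate 2. H2-DMb1 probe A_51_P278868 read -0.40 and -0.57 in G2-EC-KO, against -0.29 and -0.41 in Control, a log2 difference of -0.14 (SE 0.13). The second H2-DMb1 probe, A_52_P146877, read -1.83 and -2.23 in G2-EC-KO, against -1.65 and -1.90 in Control, a log2 difference of -0.25 (SE 0.19). The groups were apart by 0.068 for H2-DMa and overlapped at both H2-DMb1 probes. Without G2-EC-KO replicate 2 the H2-DMb1 differences were -0.047 and -0.052. H2-DMb2 was not well above background on any array, at -5.83 and -6.18 in G2-EC-KO and -5.64 and -6.84 in Control, and was not tested. H2-DMb1 and H2-DMb2 are close copies of each other, and cross-hybridisation between their transcripts cannot be set aside.

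H2-Oa, the alpha chain of the H2-DM inhibitor, was dim. It read -4.82 and -4.79 on the G2-EC-KO arrays, against -4.07 and -4.85 on the Control arrays, a log2 difference of -0.35 (SE 0.28). The groups overlapped, and 1 Control array stood above the other 3 arrays. Without Control replicate 1 the difference was 0.039, the opposite sign, and with normexp background correction it was -0.063. The beta chain gene of the same inhibitor, H2-Ob, had the same pattern in Control, with -5.12 and -5.27 in G2-EC-KO, against -4.55 and -5.58 in Control (log2 difference -0.13, SE 0.36).

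Ciita, the transactivator, had the largest estimate and the largest error. Its probe A_52_P109941 read -3.84 and -4.77 on the G2-EC-KO arrays, against -3.78 and -3.80 on the Control arrays, a log2 difference of -0.51 (SE 0.32). G2-EC-KO replicate 2 was low, and the other 3 arrays lay close together. The difference was -0.98 without G2-EC-KO replicate 1 and -0.051 without G2-EC-KO replicate 2, so 1 array carried it. The probe was well above background on all 4 arrays but dim, with a processed signal of 90.02 and 43.4 in G2-EC-KO and 103 and 104 in Control, and normexp background correction gave -0.20.

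The arrays of a group also differed from each other across the set. G2-EC-KO replicate 2 was below replicate 1 at 10 of the 11 probes, with H2-Oa the exception and a median difference of -0.18, whereas 47.1% of all probes were lower on replicate 2. Control replicate 2 was above replicate 1 at 7 of 11 probes, with a median of 0.089. These were the probes of Cd74, H2-Aa, H2-Ab1 and H2-DMa, while both H2-DMb1 probes, H2-Oa and Ciita were lower on Control replicate 2. The differences lay within the 5th to 95th percentile of all probes, -0.60 to 0.54 in G2-EC-KO and -0.45 to 0.37 in Control, except for Ciita in G2-EC-KO at -0.93 and H2-Oa in Control at -0.78. The median difference between the groups over the 11 probes was -0.16 without G2-EC-KO replicate 2 and -0.38 without G2-EC-KO replicate 1.

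**Figure D3:**
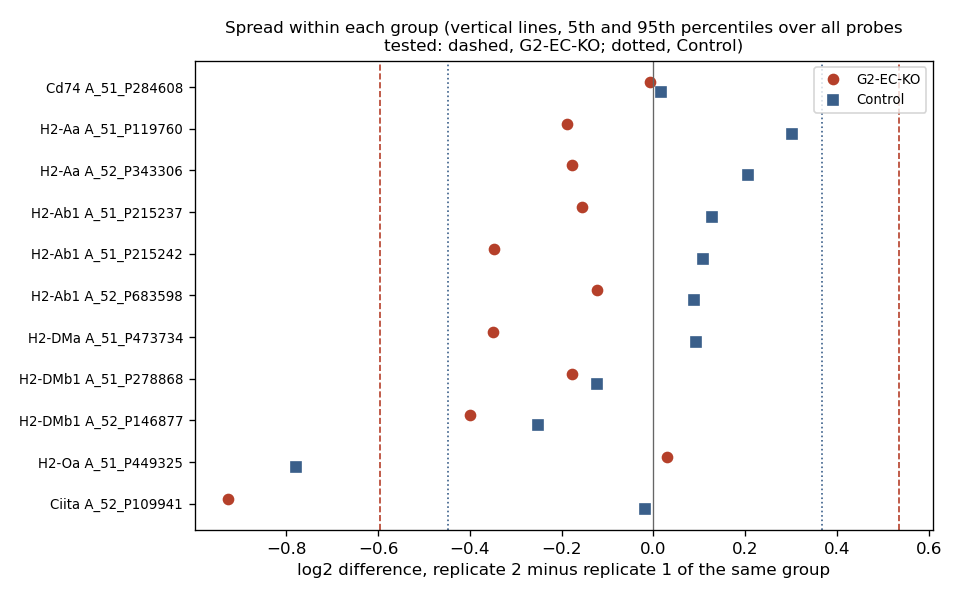
Replicate 2 minus replicate 1 within G2-EC-KO (circles) and within Control (squares) for the 11 probes tested, in log2 units, with the 5th and 95th percentiles of all probes tested as vertical lines. Ciita in G2-EC-KO and H2-Oa in Control lie outside these lines; Cd74 lies near 0 in both groups.

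The factors that Ciita docks on had a median difference close to 0, with negative values for all 3 NF-Y subunits. Of 12 genes for RFX, NF-Y and CREB subunits and chromatin partners, all tested, 8 had negative and 4 positive values, the median log2 difference was -0.015, and 0 passed an adjusted p of 0.05 by limma, or the unadjusted 0.05. The groups were without overlap on the lower side at 3 of the 12 and on the higher side at 0, against 16.4% and 30.7% of named genes. The NF-Y subunit gene Nfyb read 2.66 and 2.40 in G2-EC-KO, against 2.71 and 2.79 in Control (log2 difference -0.22). The RFX subunit genes Rfxap and Rfxank had log2 differences of -0.015 and 0.12, and the NF-Y subunit gene Nfya one of -0.11, all with overlapping groups. The last NF-Y subunit gene, Nfyc, named after its value was seen, had a log2 difference of -0.17 (SE 0.13). It read -0.60 and -0.83 in G2-EC-KO, against -0.58 and -0.50 in Control, so the groups were only narrowly without overlap.

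Genes that process antigen for class II molecules had a median difference close to 0. Of 12 genes for endosomal proteases, the thiol reductase, lysosomal membrane proteins and class II ubiquitin ligases, 4 were lower and 8 higher, with a median log2 difference of 0.034. By limma 0 passed the adjusted threshold and 1, on the higher side, the unadjusted 0.05. The cathepsin genes Ctsl, Ctsb and Ctsd had log2 differences of -0.097, 0.056 and 0.017, and the lysosomal membrane gene Lamp1 one of 0.052. The groups overlapped for all 4.

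Upstream of Ciita, 11 of 12 genes of interferon gamma signalling and its modulators were tested, with 4 lower and 7 higher and a median log2 difference of 0.15. The groups were without overlap on the lower side at 4 and on the higher side at 5, and overlapped at 2. The shares of named genes without overlap were 16.4% lower and 30.7% higher. By limma 0 passed the adjusted threshold and 1, on the higher side, the unadjusted one. The kinase gene Jak1 read 4.58 and 4.07 in G2-EC-KO, against 4.68 and 4.74 in Control. The receptor gene Ifngr1 read 3.88 and 4.31 in G2-EC-KO, against 3.75 and 3.72 in Control. The transcription factor gene Irf1 and the feedback inhibitor gene Socs1 had log2 differences of 0.033 and 0.26, with overlapping groups.

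Interferon gamma responsive genes outside class II mostly had lower means in G2-EC-KO, with overlapping groups. Of 17 tested, 14 were lower and 3 higher, with a median log2 difference of -0.13, and 0 passed by limma at the adjusted or the unadjusted 0.05. Without overlap 2 were lower and 1 higher, against 16.4% and 30.7% of named genes. Among named genes 41.5% had negative differences. Within the list B2m, the light chain of class I molecules, the chemokine gene Cxcl10 and the GTPase genes Iigp1 and Irgm1 had log2 differences of 0.042, 0.0014, -0.027 and -0.072. The median of this list was 0.058 without G2-EC-KO replicate 2 and 0.034 without Control replicate 1, the opposite sign, and -0.42 without G2-EC-KO replicate 1. The median over the 11 class II probes was -0.16, -0.34 and -0.38 in the same fits, where the list took each gene's brightest probe. The class II genes were chosen for negative differences on these arrays, so the sign they keep does not show greater stability.

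The class II genes lie together on mouse chromosome 17 except Cd74 and Ciita, and the class I peptide supply genes stand among them. Between H2-Oa and H2-Eb2 the RefSeq table lists 15 genes, of which 10 were tested and 5 of these are no members. Of those 5, 1 was higher and 4 lower, and the groups overlapped at all of them. The proteasome genes Psmb9 and Psmb8 had log2 differences of 0.058 (SE 0.12) and -0.093 (SE 0.16), and the peptide transporter genes Tap1 and Tap2 had -0.47 (SE 0.31) and -0.12 (SE 0.14). The fifth, H2-Ob, is given above.

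T cell costimulation partners were tested for 5 of 8 genes, and all 5 had negative log2 differences, from -0.45 to -0.0021 with a median of -0.13. Among named genes 41.5% were negative. The groups were without overlap on the lower side at 2 of the 5 and on the higher side at 0, against 16.4% and 30.7% of named genes. By limma 0 passed the adjusted threshold and 1, on the lower side, the unadjusted one. Of 13627 named genes, 273 did so lower. Icosl, the ligand of the T cell receptor ICOS, read 0.94 and 0.91 in G2-EC-KO, against 1.23 and 1.19 in Control. The adhesion molecule gene Icam1 read 4.42 and 3.65 in G2-EC-KO, against 4.48 and 4.48 in Control, with G2-EC-KO replicate 2 alone far from the others. Tnfsf9 and Cd40 had log2 differences of -0.10 and -0.13, with overlapping groups. Without G2-EC-KO replicate 2 the median of these 5 genes was 0.056.

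Markers of macrophages and of leukocytes in general had mostly higher means in G2-EC-KO. Of 21 macrophage and monocyte markers tested, 20 had positive and 1 negative differences, against 58.5% of named genes higher, with a median log2 difference of 0.33. Of 9 markers shared by leukocytes, 8 were higher and 1 lower, with a median of 0.16. By limma 0 of either list passed the adjusted threshold, and 2 macrophage markers, both higher, had an unadjusted p under 0.05. Of 13627 named genes, 845 did so higher. The groups were without overlap on the higher side at 7 of the 21 macrophage markers and on the lower side at 1. Of the 9 shared markers, 3 were without overlap on the higher side and 0 on the lower. The higher-side counts were near the share of named genes, 30.7% higher, with 16.4% lower. The summed linear signal of the macrophage list was 20.1 to 22.1 in G2-EC-KO and 16.0 to 21.4 in Control, and that of the shared list 4.89 to 5.52 in G2-EC-KO and 4.34 to 4.75 in Control, in units of the 75th percentile. The sum over the 7 class II genes, in the same units, was 12.6 to 13.4 in G2-EC-KO and 15.8 to 16.4 in Control. That sum mostly follows Cd74 and H2-Ab1, the genes with the brightest probes, and is no measure of the set as a whole. Levels of the sums are not comparable between lists. The macrophage median was 0.095 without Control replicate 1 and 0.64 without Control replicate 2. The median over the 11 class II probes, of genes chosen for negative differences, was -0.34 and -0.27 in these fits. Tyrobp, a signalling adaptor of myeloid cells, read 0.95 and 0.79 in G2-EC-KO, against 0.46 and 0.59 in Control. Cd52, a surface glycoprotein of leukocytes, read 0.18 and 0.026 in G2-EC-KO, against -0.11 and -0.37 in Control. Mertk, a receptor for dying cells, was the 1 macrophage marker with a negative difference, -0.19 (SE 0.11). Lyz1 and Cd14 of the macrophage list had log2 differences of 0.15 and 0.089 with overlapping groups. Lcp1, Coro1a and Ptprc of the shared list had 0.16, 0.24 and 0.10, and the groups of Lcp1 did not overlap. Their part in the class II values was not tested.

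Dendritic cell, B cell and T and NK cell markers gave mostly negative differences. Of 9 dendritic cell markers tested, 6 were lower and 3 higher, with a median log2 difference of -0.15. Among named genes 41.5% were lower and 58.5% higher. The groups were without overlap on the lower side at 2 of the 9 and on the higher side at 0, against 16.4% and 30.7% of named genes. Batf3, a transcription factor of cross-presenting dendritic cells, read -0.31 and -1.14 in G2-EC-KO, against -0.36 and -0.35 in Control. Zbtb46, which endothelial cells also express, read -0.47 and -1.13 in G2-EC-KO, against -0.46 and -0.41 in Control. As with Ciita, G2-EC-KO replicate 2 alone was low for both genes. The dendritic median was 0.039 without that array and -0.41 without G2-EC-KO replicate 1. The summed signal of this list was 29.1 to 36.7 in G2-EC-KO and 35.1 to 36.1 in Control. Its transcription factor gene Irf8 read 4.99 and 4.65 in G2-EC-KO, against 5.01 and 4.92 in Control, a log2 difference of -0.14. These values lay far above those of the other markers, so the sum mostly follows Irf8 and is no measure of the list as a whole. Cd83, a surface protein of mature dendritic cells, read 1.48 and 1.32 in G2-EC-KO, against 0.90 and 1.46 in Control, a log2 difference of 0.22.

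Of 7 B cell markers tested, 5 were lower and 2 higher, with a median log2 difference of -0.068 and a summed signal of 0.636 to 0.643 in G2-EC-KO and 0.487 to 1.05 in Control. The immunoglobulin coreceptor gene Cd79b read -1.82 and -1.82 in G2-EC-KO, against -0.88 and -2.51 in Control, and the surface marker gene Ms4a1 read -3.64 and -3.89 in G2-EC-KO, against -2.81 and -4.47 in Control. Cr2 had a log2 difference of -0.36, and its groups did not overlap. Of the 7 B cell markers, 1 was without overlap on the lower side and 0 on the higher. Control replicate 1 was high for Cd79b and Ms4a1, as it was for H2-Oa and H2-Ob. The B cell median was 0.36 without Control replicate 1 and -0.50 without Control replicate 2. Of 8 T and NK cell markers, 7 were lower and 1 higher, with a median of -0.14 and a summed signal of 0.896 to 1.12 in G2-EC-KO and 0.998 to 1.24 in Control. The T and NK median was 0.11 without G2-EC-KO replicate 2 and 0.086 without Control replicate 1, the opposite sign. Of this list Lck, Cd247, Cd3e and Cd2 had log2 differences of -0.092, -0.25, 0.064 and -0.022, and the groups of Cd247 did not overlap. At 2 of the 8 T and NK cell markers the groups were without overlap on the lower side and at 0 on the higher. The shares of named genes were 16.4% lower and 30.7% higher, and 41.5% had negative differences. By limma 0 of the B cell, T and NK cell and dendritic cell lists passed the adjusted threshold. In these lists 1 T and NK cell marker, lower, had an unadjusted p under 0.05 by limma. Of 13627 named genes, 273 did so lower. Pax5, Cd22 and Blk of the B cell list, Flt3, Cd209a and Siglech of the dendritic list and Cd3g, Cd8a and Ncr1 of the T and NK list were well above background on fewer than 2 arrays. The part of these cells in the class II values was not tested.

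Fibroblast and cardiomyocyte markers mostly had higher means in G2-EC-KO. The 8 fibroblast markers had a median log2 difference of 0.21, with 7 higher and 1 lower and a summed signal of 115 and 115 in G2-EC-KO and 86.6 and 111 in Control. Dcn, Col1a2, Col3a1 and Postn had log2 differences of 0.12, 0.16, 0.33 and 0.27. The 8 cardiomyocyte markers had a median of 0.32, with 8 higher and a summed signal of 101 and 139 in G2-EC-KO and 96.1 and 98.1 in Control. The cardiomyocyte median was 0.017 without G2-EC-KO replicate 2 and 0.62 without G2-EC-KO replicate 1. Actc1, Myl2, Tnnt2 and Mb had log2 differences of 0.12, 0.36, 0.26 and 0.27. The groups did not overlap for Col3a1 and Myl2 and overlapped for the other 6 of these genes. Of all 8 fibroblast markers, 3 were without overlap on the higher side and 1 on the lower. Of all 8 cardiomyocyte markers, 2 were so on the higher side and 0 on the lower. The shares of named genes were 30.7% higher and 16.4% lower, and 58.5% had positive differences. By limma 0 of either list passed the adjusted threshold, and 2 fibroblast markers, higher, had an unadjusted p under 0.05. Of 13627 named genes, 845 did so higher. The part of fibroblasts and cardiomyocytes in the class II values was not tested.

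**Figure D4:**
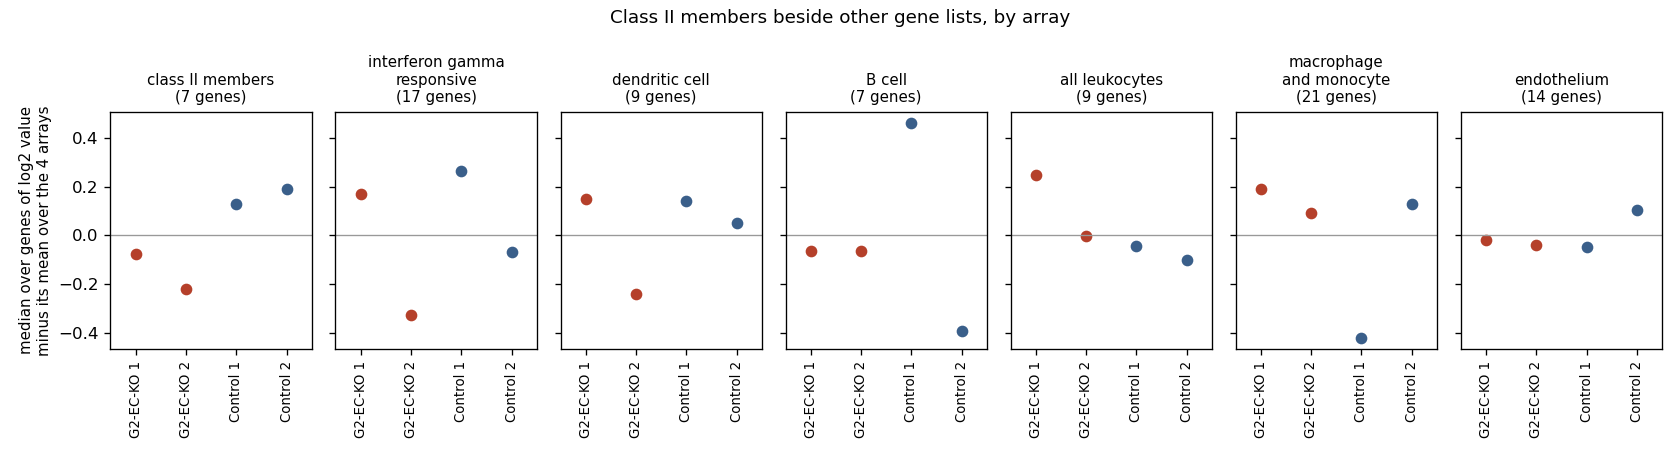
Median over the genes of a list of each log2 value minus its mean over the 4 arrays, for the class II members and 6 other lists, with G2-EC-KO left of Control. The class II members are at -0.077 and -0.22 in G2-EC-KO and at 0.13 and 0.19 in Control, without overlap; the macrophage and monocyte markers are lowest on Control replicate 1.

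Many other genes had a similar profile over the 4 arrays. Taken as the median over the 7 genes, each centred on its own mean, and centred once more so that the 4 medians average 0, the class II profile was -0.083 and -0.23 in G2-EC-KO and 0.12 and 0.18 in Control. Of 13620 other named genes, 1001, or 7.35%, lay within a root mean square difference of 0.1 log2 units of it. The closest were Gtpbp6, Elk4, Dll1, Esyt2 and Pias4, with distances of 0.0087 to 0.017 and log2 differences of -0.33 to -0.28. Dll1, a Notch ligand, read 1.52 and 1.38 in G2-EC-KO, against 1.73 and 1.83 in Control, and Elk4, an ETS family transcription factor, read -1.83 and -1.95 in G2-EC-KO, against -1.60 and -1.56 in Control. Likeness over 4 arrays is a description of these arrays alone.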

How the data were processed

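RNA of 4 samples was hybridised to 1-colour Agilent arrays of design 014868. The authors deposited linear spot intensity values, background-corrected and detrended by Feature Extraction (version 10.7.3.1 per the file headers, 10.5 in the submitters' processing notes). A deposited intensity table, equal to median signal minus median background plus 16, served as an alternative, floored at 1.

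Control spots and outlier flags were dropped, and log2 values were set relative to the array's 75th percentile, with spots of a probe averaged. Of 41174 probes, 26925 were named by accession through RefSeq (GRCm38.p6). The 26900 that passed the background filter were tested with limma 3.58.1 in R 4.3.3, two-sided, with group as the only term and Benjamini-Hochberg adjustment over all. Residual degrees of freedom were 2, prior 2.58, the median SE 0.14. The fit was tested on simulated data. The number of arrays limits the precision. Lists took each gene's brightest probe. Members, lists and tests were chosen with earlier results of these data known. Named were all members, the 4 genes of highest mean signal per list, any past the adjusted threshold, and the 5 nearest in profile. Ifi202b, Slc15a2, Gata2, Nfyc, Pecam1, Tie1, Tek, Erg and the neighbours on chromosome 17 were chosen after their values were seen. Alternatives were normexp (offset 50, on the median spot signal, as no mean signal was used here), quantile normalization, median centring, other filters, the deposited table, an intensity trend, a replicate block and leaving out each array.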

Additional observations from a re-analysis of the deposited data

How the results depend on the processing

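Of 132 values of the 11 class II probes under 12 alternatives, 131 were negative, and the exception was H2-Oa without Control replicate 1. The genes were chosen for negative differences on these arrays, so this count is a description alone. With the replicate block the median over the probes was -0.31, as without it, and 0 probes passed an adjusted p of 0.05, as under every alternative (limma, smallest adjusted p 0.133, without G2-EC-KO replicate 1); the unadjusted count ranged from 0 to 4. Deviations of same-numbered samples correlated at 0.044 over all probes, so the numbers were not taken as pairs. The median over the 11 probes lay between -0.38 and -0.16 when 1 array was left out and was -0.23 with normexp, -0.33 with quantile normalization, -0.29 with median centring and -0.26 with the deposited table. Probes without overlap numbered 8 to 11 on the lower side and 0 to 1 on the higher side with 1 array left out, and 7 or 8 lower and 0 higher under the other settings. With an array left out fewer values have to lie apart, so these counts are not comparable with those over all 4 arrays. The share over all probes was not computed for these settings. Without G2-EC-KO replicate 2 the median over the 11 probes moved by more than the spread between replicates, from -0.31 to -0.16. Of the 132 single values 4 moved by more than that spread, all of Cd74, whose 12 alternatives lay between -0.34 and -0.30. Small shifts exceed its spread, as its SDs were only 0.0058 in G2-EC-KO and 0.012 in Control. Ciita ranged from -0.98 to -0.051 and H2-Oa from -0.74 to 0.039. Neither counted as moved, because replicates of 1 group lay far apart, so this measure does not rank probes by stability. Of 167 list medians, 8 moved by more than the spread between replicates, all with 1 array left out. Those ranges were -0.11 to 0.0093 for the enhanceosome, 0.042 to 0.21 for interferon gamma signalling, -0.12 to 0.022 for endothelium, 0.095 to 0.64 for macrophages, -0.41 to 0.039 for dendritic cells, 0.13 to 0.33 for shared leukocyte markers and 0.13 to 0.37 for fibroblasts. The cause was not tested. The list of other class II region genes held 1 tested gene, H2-Ob, and had no value with a filter on all arrays. Dim probes, Ciita and H2-Oa above all, are limited by signal over background.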
